A study of Mus musculus with 4 samples.

Results

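The genes described are those for the cytosolic ribosomal proteins of the mouse, in 2 libraries from sorafenib-treated and 2 libraries from carrier-treated liver tumors. They were taken by symbol: an Rpl, Rps or Rplp name with a number and at most a short a, x or l ending, or Rpsa, without the copies marked -ps and without the Rps6k kinases. Of 39179 genes in the tables, 88 matched, 52 of the large and 36 of the small subunit. The matches include Rpl6l, Rps12l1, Rps3a2, Rps3a3 and Rps4l, which the GENCODE M21 gene annotation lists as pseudogenes. Only Rps4l of these passed the filter below. Of these 88, 80 reached 1 CPM (the reads of a gene scaled to a common library total) in at least 2 libraries, 47 of the large and 33 of the small subunit. They are 80 of the 13149 genes that passed that filter and were tested. The rule used symbols and the level filter and no difference between the groups.

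Both groups were C57BL/6 wild-type mice whose hepatocytes received transposons coding for Myc and for NrasG12V, an oncogenic form of the small GTPase Nras, by hydrodynamic injection, a fast, large-volume injection that carries DNA into the liver. The genotype is given as Myc/NrasG12V for every library. One group was then given sorafenib, an inhibitor of several kinases that is used against hepatocellular carcinoma, and the other its carrier, on alternate days over 3 weeks. Since the transposons enter only some hepatocytes, a piece of such a liver can hold tumor cells, untransformed hepatocytes and the other cells of the organ. Whether 2 libraries of a group came from separate mice is not given in the labels, so a p-value here speaks only of the spread among these libraries, and that spread may be technical. Poly(A) RNA was read on a stranded protocol, with total reads in genes of 4067427 and 5246530 in sorafenib libraries 1 and 2, and of 5932939 and 5300806 in carrier libraries 1 and 2. In every pair of values below, library 1 of a group stands before library 2.

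A cytosolic ribosome holds a single copy of nearly all of its proteins. Their genes are expressed in every cell that makes protein, and growing cells make a large share of their mRNA from them. Many of these mRNAs begin with a run of pyrimidines, the terminal oligopyrimidine (TOP) motif, through which the protein LARP1 and the kinase complex mTORC1 set how much of them is translated and kept. The transcription factor Myc is a known activator of ribosome production in the liver and in liver tumors. These statements are background and were not tested here.

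In some of the genes a run of C and T, the feature that gives TOP mRNAs their name, stands at the annotated start. RefSeq's promoter table of the GRCm38.p6 build held 63 of the 88 genes and 59 of the 80 kept ones. The 30 bases around the annotated start are shown for genes with large, middling and no difference below, and for 2 pairs of paralogues. The transcription start stands after the first 15 bases, and capitals mark the longest run of C and T.
Rplp0 (chr5:115559452-115559481, + strand): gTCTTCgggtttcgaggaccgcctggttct
Rplp2 (chr7:141447636-141447665, + strand): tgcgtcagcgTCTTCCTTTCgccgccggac
Rpl15 (chr14:18270972-18271001, - strand): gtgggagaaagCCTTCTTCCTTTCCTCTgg
Rpl18 (chr7:45718056-45718085, + strand): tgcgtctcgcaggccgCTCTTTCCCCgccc
Rps9 (chr7:3704026-3704055, + strand): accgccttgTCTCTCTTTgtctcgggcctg
Rps10 (chr17:27635230-27635259, - strand): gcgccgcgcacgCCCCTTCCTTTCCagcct
Rps6 (chr4:86857353-86857382, - strand): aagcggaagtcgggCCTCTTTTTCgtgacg
Rpl22 (chr4:152325711-152325740, + strand): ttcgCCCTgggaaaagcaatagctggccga
Rpl22l1 (chr3:28805493-28805522, + strand): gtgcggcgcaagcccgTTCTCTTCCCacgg
Rps27 (chr3:90213634-90213663, - strand): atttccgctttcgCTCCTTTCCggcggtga
Rps27l (chr9:66946071-66946100, + strand): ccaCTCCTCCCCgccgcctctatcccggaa
The run spans the start or comes within a base of it in Rplp2, Rpl15, Rpl18, Rps9, Rps10, Rps6, Rpl22l1 and Rps27, and lies before it in Rps27l. In Rplp0 and Rpl22 the longest run was only 5 and 4 bases and lay before the start. Annotated starts are not always the base where transcription begins: the RefSeq start lay 769 bases from the GENCODE start used here for Rps10, 127 for Rpl22 and 0 for Rps27l and Rplp0.

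Within 30 bases on either side of the start, 33 of the 59 genes (55.9%) held a run of 8 or more C or T on the transcribed strand, against 22.9% of all 32851 promoters in the table. The longest run there had a median of 9 bases in the 59 genes and of 5 in all promoters. Both values take a run anywhere in that window, not only at the start. In Rpl11 the longest run began 13 bases after the start, and in Rpl26 21 bases after it. How many of the 59 hold a run at the start itself was not counted, and the genes printed above do not give that share. In the whole 300 bases, 250 before and 50 after the start, on either strand, CCGGAA, the core that ETS factors such as GABP bind, was present in 31 of 59 (52.5%) against 14.9% of all promoters. The Sp-factor motif GGGCGG was present in 37 of 59 (62.7%) against 35.7%. AAGATGGC, a motif of YY1, was present in 5 of 59 (8.47%) against 2.75%, and the Myc E-box CACGTG in 5 of 59 (8.47%) against 7.15%. TATAAA was present in 6 of 59 (10.2%) against 13.6%, and CCAAT in 18 of 59 (30.5%) against 37.4%. The 32851 promoters belong to 27025 gene symbols, some with several starts, and were not limited to the tested genes. Each of the 59 genes entered with the promoter nearest its GENCODE start. A match is a match of letters and not a bound site.

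In both sorafenib libraries, ribosomal protein transcripts took a smaller share of the reads than in either carrier library. Together the 80 genes held 1.90% and 0.922% of all reads in genes in the sorafenib libraries, against 2.84% and 2.5% in the carrier libraries. The 95% Wilson intervals were 1.89 to 1.91% and 0.913 to 0.930% for sorafenib, against 2.83 to 2.86% and 2.48 to 2.51% for carrier, and cover counting error only. The gap between the sorafenib libraries was larger than the gap between the carrier libraries. Both subunits showed this order: large subunit genes held 1.09% and 0.513% of reads with sorafenib, against 1.63% and 1.44% with carrier, and small subunit genes 0.815% and 0.408%, against 1.21% and 1.06%.

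**Figure D1:**
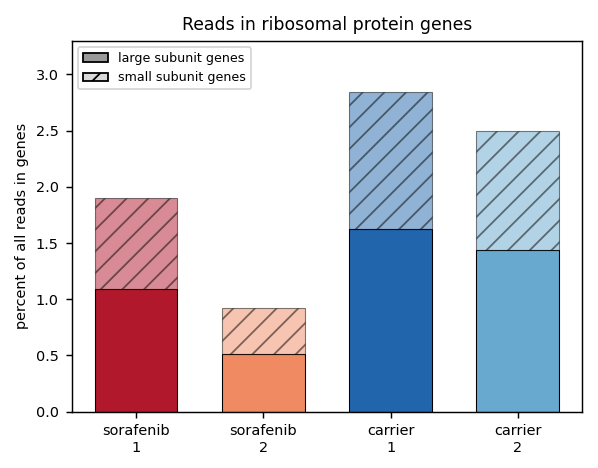
Percent of all reads in genes that fell in the 80 ribosomal protein genes (y axis), by library (x axis), with large subunit genes as the solid and small subunit genes as the hatched part of each bar. Sorafenib library 2 had the lowest bar, at 0.922%, sorafenib library 1 stood at 1.90%, and the carrier libraries stood highest, at 2.84% and 2.5%.

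The balance between the subunits moved less than their level. Large subunit genes had 1.33 and 1.26 times the summed CPM of small subunit genes in the sorafenib libraries, against 1.34 and 1.36 times in the carrier libraries. One small subunit gene, Rps27l, made up 2.53% and 4.58% of the small subunit sum with sorafenib, against 1.72% and 1.83% with carrier. Without it, the ratio was 1.37 and 1.32 in the sorafenib libraries, against 1.36 and 1.38 in the carrier libraries, a choice made after its values were seen.

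Gene by gene, 73 of the 80 had both sorafenib libraries below both carrier libraries, 43 of 47 in the large and 30 of 33 in the small subunit. The same held for 41.3% of all 13149 genes, while 0 of the 80 and 17.5% of all genes lay higher in both sorafenib libraries. No single gene passed the test: limma on log2(CPM + 1), adjusted over all 13149 genes by the Benjamini-Hochberg method, called 0 of the 80 at 0.05 and 0 of all genes (0.0%), with adjusted p from 0.240 to 0.966 in the 80. At an unadjusted limma p under 0.05, 56 of the 80 were lower with sorafenib (33 large, 23 small), against 12.9% of all genes. On whole reads recovered from the CPM, edgeR's quasi-likelihood test called 0 of the 80 and 0.0% of all genes. Its likelihood ratio test called 0 of the 80 and 5.28% of all genes. DESeq2 called 0 of the 80 and 3.79% of all 13149 genes, with 0.0503 its smallest adjusted p in the 80, for Rpl5. It gave an adjusted p to only 11109 of the 13149 genes, and to none of the 80 was it missing but Rpl23a. Fold changes below are therefore values with an error, and no single gene's difference exceeded the spread between libraries after adjustment.

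**Figure D2:**
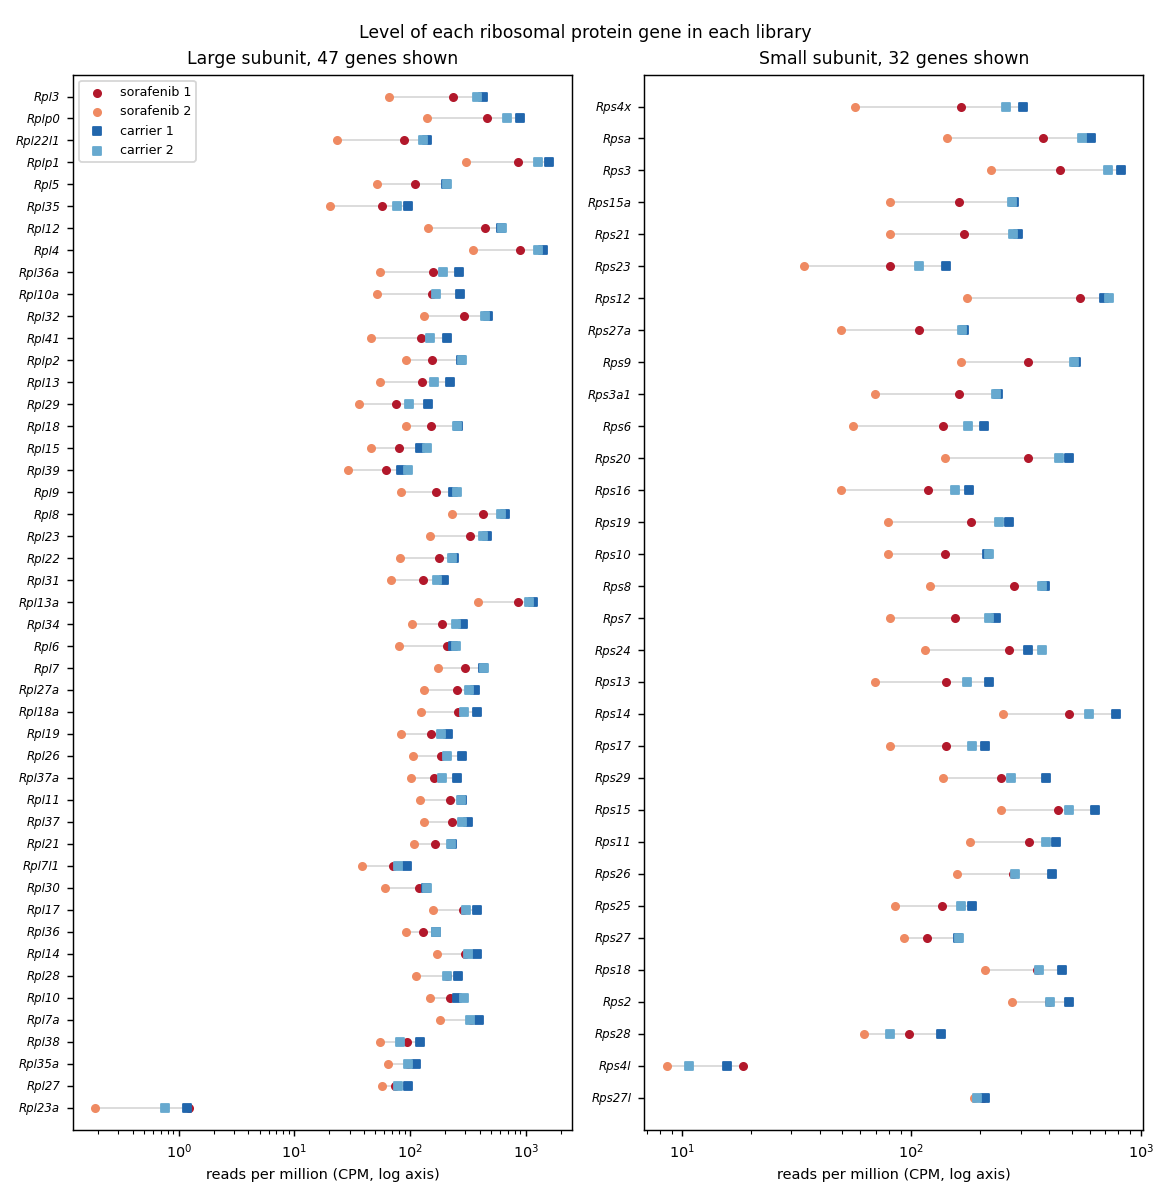
CPM of 79 of the 80 ribosomal protein genes on a log axis (x), 1 row per gene, large subunit left and small subunit right, ordered by fold change with the most negative at the top. Circles are sorafenib libraries and squares are carrier libraries. In 72 rows both circles lie left of both squares, and Rps27l near the bottom right has its 4 points together.

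The median log2 fold change was -0.95 for large and -1.02 for small subunit genes, and -0.26 for all tested genes. Over the 80 genes it was -0.98, with quartiles of -1.21 and -0.73. The log2 fold change was negative in all 80 kept genes, as in 67.8% of all genes. The size differed between the sorafenib libraries. Measured from the carrier mean, library 1 had a median of -0.47 over the 80 genes and -0.10 over all genes, and library 2 had -1.47 and -0.40. Every one of the 80 was lower in sorafenib library 2 than in sorafenib library 1, as were 8959 of the 13149 tested genes. Library 1 alone lay below both carrier libraries in 73 of the 80 genes (47.1% of all genes), and library 2 alone in all 80 kept genes (62.4%). Carrier library 2 was below carrier library 1 in 66 of the 80, and in 7170 of the 13149 tested genes. Over the 80 it was lower by a median of 0.17 on the log2 scale.

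**Figure D3:**
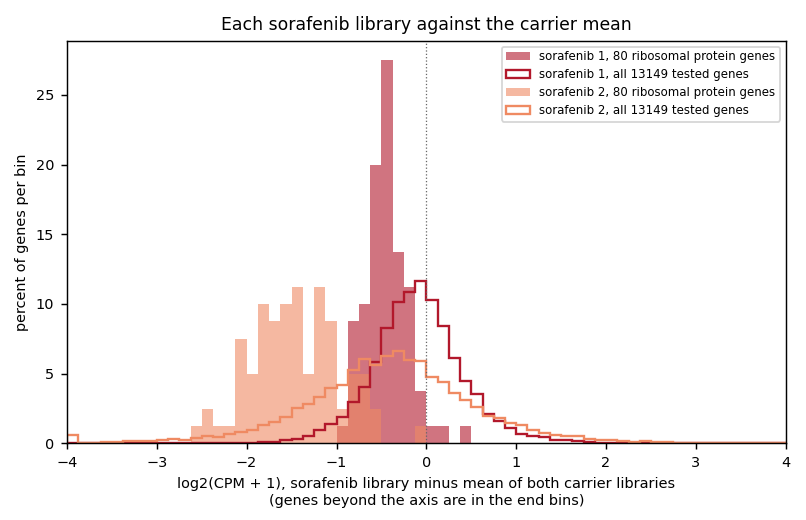
Distribution of the difference between a sorafenib library and the carrier mean on the log2(CPM + 1) scale (x axis), as percent of genes per bin (y axis). Filled bars are the 80 ribosomal protein genes and outlines are all 13149 tested genes, the 80 among them. The filled bars have medians of -0.47 for library 1 and -1.47 for library 2, left of the outlines' medians of -0.10 and -0.40.

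The outcome of the test depended on the library. Without sorafenib library 1, limma called 76 of the 80, each lower, while 39.2% of all genes were called and 29.8% were called as lower. Without sorafenib library 2, it called 3 of the 80, Rpl5 (limma adjusted p = 0.0267), Rplp2 (adjusted p = 0.0376) and Rps15a (adjusted p = 0.0481), each lower, while 3.03% of all genes were called and 1.27% were called as lower. In each of these fits the lone sorafenib library was assumed to vary like the carrier group. Without either carrier library the count was 0, as with all 4 libraries.

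CPM gives each gene its share of the reads, so the scaling matters. With TMM factors the median of the 80 was -0.72 and that of all genes -0.04, with DESeq2-type factors (RLE) -0.71 and -0.02, and with upper-quartile factors -0.78 and -0.09. Relative to all genes the 80 were thus -0.72 on the CPM scale and -0.69, -0.68 and -0.69 with these factors. Both sorafenib libraries were below both carrier libraries in 66 of the 80 with TMM factors (29.2% of all genes), in 66 with RLE (28.9%) and in 68 with upper-quartile factors (31.7%). Rps27l and Rps4l were the 2 genes whose direction turned.

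Among the large subunit proteins, those of the stalk, which draws elongation factors to the ribosome, and of its base had the most negative median log2 fold change of the role groups, -1.39. Rplp0, the stalk's anchor, had 459 and 140 CPM in sorafenib libraries, against 883 and 682 CPM in carrier libraries. Rplp1, 1 of the acidic stalk proteins, had 861 and 302 CPM with sorafenib, against 1597 and 1271 CPM with carrier. Its partner Rplp2 had 155 and 91.7 CPM, against 275 and 279 CPM. All 3 genes were lowest in sorafenib library 2, with both sorafenib libraries below both carrier libraries, as in 41.3% of all tested genes. Rplp1 also had the highest level per kilobase of coding sequence of any kept gene. It averaged 1701 CPM per kb in sorafenib and 4193 CPM per kb in carrier libraries. Rpl12, which sits at the base of the stalk, had 447 and 143 CPM with sorafenib, against 616 and 627 CPM with carrier. The log2 fold changes were -1.61 ± 0.54 for Rplp0, -1.48 ± 0.49 for Rplp1, -1.21 ± 0.29 for Rplp2 and -1.29 ± 0.51 for Rpl12 (limma estimate ± SE, 2 libraries a group), and a value in parentheses after CPM values below is this log2 fold change. The adjusted limma p was 0.25, 0.25, 0.240 and 0.258 in that order. Rplp2 had the smallest unadjusted limma p of the 80 genes, 0.00544.

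Rpl5 and Rpl11 carry the 5S rRNA into the large subunit and, when not built in, bind the p53 inhibitor Mdm2. Rpl5 had 110 and 52.2 CPM in sorafenib libraries, against 203 and 211 CPM in carrier libraries. Rpl11 had 221 and 122 CPM, against 282 and 276 CPM. The pair differed in size, with log2 fold changes of -1.43 ± 0.36 for Rpl5 and -0.76 ± 0.31 for Rpl11 (limma adjusted p = 0.240 and 0.260), and in both genes the carrier libraries lay close together. In Rpl5, 46.6% of the exon bases lie opposite exons of Fam69a on the other strand, and whether strand was used in counting is not given in the sources used here.

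Rpl3, which lines the peptidyl transferase center, had the most negative value of all 80 kept genes. It had 233 and 65.4 CPM with sorafenib, against 423 and 382 CPM with carrier (-1.69 ± 0.55, limma adjusted p = 0.247). Rpl18 had 150 and 92.6 CPM, against 261 and 253 CPM (-1.12 ± 0.28). Rpl15 had 79.4 and 46.1 CPM, against 121 and 139 CPM (-1.09 ± 0.30). Rpl18, Rpl15 and Rpl32 were with Rplp2 and Rpl5 the 5 large subunit genes of smallest p. Rpl32 had 290 and 131 CPM with sorafenib, against 473 and 441 CPM with carrier (-1.22 ± 0.38). In all of these genes sorafenib library 1 lay between sorafenib library 2 and the carrier libraries.

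Of 9 genes for proteins around the exit tunnel, through which the new chain leaves, 7 had both sorafenib libraries under both carrier libraries (41.3% of all genes), and the median log2 fold change of the 9 was -0.80. Rpl4, which reaches into the tunnel wall, had 886 and 348 CPM in sorafenib libraries, against 1404 and 1270 CPM in carrier libraries. Rpl35, at the tunnel's mouth, had 57.3 and 20.4 CPM, against 95.6 and 77.0 CPM, but 68.3% of its exon bases lie opposite another gene's exons. Rpl39, a small protein deep in the tunnel, had 62.0 and 28.8 CPM, against 82.8 and 96.8 CPM. Of the other members, Rpl19, Rpl26 and Rpl31 had log2 fold changes of -0.80, -0.79 and -0.96. Rpl17 had -0.68, with 287 and 156 CPM with sorafenib against 380 and 303 CPM with carrier. The groups overlapped in Rpl38, with 93.2 and 55.3 CPM against 122 and 82.4 CPM, and in Rpl23a.

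Rpl23a and Rpl24 are proteins of every ribosome but were near the limit of the tables. Rpl23a, which docks the signal recognition particle, had 1.23 and 0.191 CPM with sorafenib, against 1.18 and 0.755 CPM with carrier. It passed the level filter through library 1 of each group and was the lowest of the 80. Rpl24 had 0.983 and 0.953 CPM, against 1.18 and 0.377 CPM, and did not pass. The next kept gene above Rpl23a, Rps4l, had 18.4 and 8.58 CPM, against 15.7 and 10.8 CPM. In the GENCODE M21 transcripts, 81.7% of the 75-base stretches of Rpl23a and 80.9% of those of Rpl24 also occur in transcripts of other genes, and 71.5% of the exon bases of Rpl24 are shared with exons of Gm28037 on the same strand. In Rpl23a, 55.4% of the exon bases also lie opposite exons of Tlcd1 on the other strand. Reads that match several genes can be dropped or split in counting, and how they were treated is not given in the sources used here. Every kept gene with a larger shared part than Rpl23a had a higher level. Rps27, with 98.5% shared, averaged 160 CPM in carrier libraries, and Rpl10, with 91.9%, averaged 274 CPM. Why Rpl23a and Rpl24 were low was not tested. The other 7 genes not kept were Rpl10l, Rpl39l, Rpl3l, Rpl6l, Rps12l1, Rps3a2 and Rps3a3. GENCODE M21 lists Rpl6l, Rps12l1, Rps3a2 and Rps3a3 as processed pseudogenes. Of the 7, Rps3a3 had 0.492 and 0.572 CPM with sorafenib, against 0.674 and 1.51 CPM with carrier. Rpl39l and Rps12l1 were at 0 in all 4 libraries, under a limit of 3 reads of 0.738 and 0.572 CPM in the sorafenib libraries and of 0.506 and 0.566 CPM in carrier libraries.

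In the small subunit the 5 genes of smallest p were Rps15a, Rps3, Rps21, Rps9 and Rps10. Rps15a had 161 and 81.0 CPM in sorafenib libraries, against 281 and 276 CPM in carrier libraries (-1.28 ± 0.34). Rps3, which lines the channel where mRNA enters, had 446 and 223 CPM, against 818 and 720 CPM (-1.28 ± 0.36). Rps21 had 170 and 81.0 CPM, against 293 and 278 CPM (-1.27 ± 0.36). In these 3 genes sorafenib library 1 stood near the middle between sorafenib library 2 and carrier, and limma gave each an adjusted p of 0.240. Rps9, a protein that affects the accuracy of decoding, had 324 and 164 CPM with sorafenib, against 521 and 513 CPM with carrier. Rps10 had 141 and 78.9 CPM, against 214 and 218 CPM, but 91.6% of its exon bases are shared with a read-through gene on the same strand. Rps4x, an X-linked gene, had the most negative value of the small subunit, -1.53 ± 0.48, with 164 and 57.0 CPM with sorafenib against 306 and 259 CPM with carrier.

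For proteins along the decoding site and the mRNA path, 8 genes had rows, with a median log2 fold change of -0.86. In 7 of them both sorafenib libraries were lower, as in 41.3% of all genes. Rps23, whose hydroxylated loop reaches into the decoding center, had 80.6 and 33.9 CPM, against 142 and 108 CPM (-1.23 ± 0.42). Rps14, Rps15 and Rps26 had -0.95, -0.76 and -0.69. Rps2, at the mRNA entry, had 397 and 275 CPM with sorafenib, against 488 and 401 CPM with carrier (-0.42 ± 0.26), with sorafenib library 1 just under carrier library 2. Rps28 was the gene whose groups overlapped, with 97.4 and 62.1 CPM, against 134 and 80.5 CPM.

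Among proteins with known signaling or regulatory roles, Rps6, the substrate of the S6 kinases below mTORC1, had 138 and 55.7 CPM in sorafenib libraries, against 207 and 177 CPM in carrier libraries (-1.12 ± 0.42). Rpsa, also known as the laminin receptor precursor, had 374 and 143 CPM, against 609 and 555 CPM (-1.33 ± 0.44). Rps19, the first gene tied to Diamond-Blackfan anemia in humans, had 182 and 78.7 CPM, against 266 and 242 CPM (-1.08 ± 0.39). Rpl13a, which in human cells can leave the ribosome to silence inflammatory mRNAs, had 850 and 389 CPM with sorafenib, against 1159 and 1073 CPM with carrier (-0.95 ± 0.39). In all 4 genes both sorafenib libraries lay below both carrier libraries, as in 41.3% of all tested genes. In Rpl13a, 59.3% of exon bases are shared with Gm45713 and Mir5121 on the same strand.

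Some ribosomal proteins are made as fusions to ubiquitin or a ubiquitin-like chain. Rps27a had 108 and 49.4 CPM in sorafenib libraries, against 170 and 167 CPM in carrier libraries (-1.19 ± 0.37). Fau, which codes for the small subunit protein also called Rps30 and is not matched by the symbol rule, had 91.0 and 74.9 CPM, against 121 and 98.3 CPM (-0.40). Rack1, a scaffold on the small subunit that no Rp symbol names, had 812 and 334 CPM with sorafenib, against 1350 and 1175 CPM with carrier (-1.27, limma adjusted p = 0.25). Rps27rt, a copy of Rps27, had 1.97 and 0.953 CPM, against 5.39 and 1.51 CPM. Of the 5 listed genes outside the symbol rule, 3 lay lower in both sorafenib libraries, Fau, Rack1 and Rpl36al, against 41.3% of all tested genes.

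On the CPM scale, Rps27l had the log2 fold change nearest to 0 of the 80. It had 206 and 187 CPM in sorafenib libraries, against 209 and 194 CPM in carrier libraries (-0.04 ± 0.20, limma adjusted p = 0.926), and the value was 0.22 with TMM, 0.23 with RLE and 0.16 with upper-quartile scaling. The 4 libraries lay within a narrow range and the groups overlapped. RPS27L is known in human cells as a gene that p53 switches on. Its paralogue Rps27 had 117 and 92.6 CPM with sorafenib, against 160 and 161 CPM with carrier (-0.62 ± 0.22, limma adjusted p = 0.253). The coding sequences of the pair have the same length, and Rps27l had 1.76 and 2.02 times the CPM of Rps27 with sorafenib, against 1.31 and 1.21 times with carrier. Of the 75-base stretches of Rps27, 98.5% occur in transcripts of other genes, against 12.0% for Rps27l, so the level of Rps27 itself, and with it the ratio, is uncertain.

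The 100 bases before the RefSeq start of the pair are shown because they had unlike motifs, with the searched motifs in capitals.
Rps27 (chr3:90213649-90213748, - strand): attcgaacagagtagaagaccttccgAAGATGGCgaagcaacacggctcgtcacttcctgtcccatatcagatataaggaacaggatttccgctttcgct
Rps27l (chr9:66945986-66946085, + strand): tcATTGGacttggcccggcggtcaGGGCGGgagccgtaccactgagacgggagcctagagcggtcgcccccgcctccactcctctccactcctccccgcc
Rps27 held the YY1 motif AAGATGGC, which starts 74 bases before the start. Rps27l held GGGCGG, 76 bases before it, and CCAAT on the other strand, 98 bases before it. The pair also had features in common. Both held CCGGAA after the start, on either strand and so outside this stretch. In both, the longest run of C and T within 30 bases of the start was 9 bases. Over the 59 genes with a promoter entry, the median log2 fold change was -0.98 with a C or T run of 8 or more near the start (33 genes) and -1.01 without one (26 genes). It was -0.91 with CCGGAA (31 genes) and -1.05 without it (28 genes), and -0.92 with CACGTG (5 genes) and -1.03 without it (54 genes). For AAGATGGC it was -0.71 with (5 genes) and -1.02 without (54 genes), for CCAAT -1.17 with (18 genes) and -0.96 without (41 genes), for GGGCGG -1.08 with (37 genes) and -0.93 without (22 genes), and for TATAAA -1.16 with (6 genes) and -0.98 without (53 genes). These medians are descriptions without a test.

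The other paralogue pairs gave different pictures. Rpl22 had 178 and 81.4 CPM in sorafenib libraries, against 240 and 230 CPM in carrier libraries (-0.96 ± 0.37). Rpl22l1, whose product can take the place of Rpl22 in the ribosome, had 88.3 and 23.4 CPM, against 139 and 130 CPM (-1.54 ± 0.57). Both were lower with sorafenib in each library, as were 41.3% of all tested genes, and Rpl22l1 had the third most negative value of the large subunit. Rpl7 had 301 and 174 CPM with sorafenib, against 427 and 433 CPM with carrier (-0.91). Rpl7l1, a paralogue linked to ribosome assembly, had 71.0 and 38.7 CPM, against 94.7 and 78.9 CPM (-0.71). Rpl36a, X-linked, had 159 and 54.9 CPM with sorafenib, against 263 and 192 CPM with carrier (-1.25), and its paralogue Rpl36al had 47.2 and 37.9 CPM, against 65.6 and 55.6 CPM (-0.50). Rps4l, which GENCODE M21 lists as a transcribed processed pseudogene of the Rps4x family, had a log2 fold change of -0.04, which was 0.19 with TMM, 0.21 with RLE and 0.14 with upper-quartile scaling. The muscle and testis forms Rpl3l and Rpl10l were at or under the limit of 3 reads in every library, Rpl39l was at 0, and Rpl26l1 had no row in the tables.

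**Figure D4:**
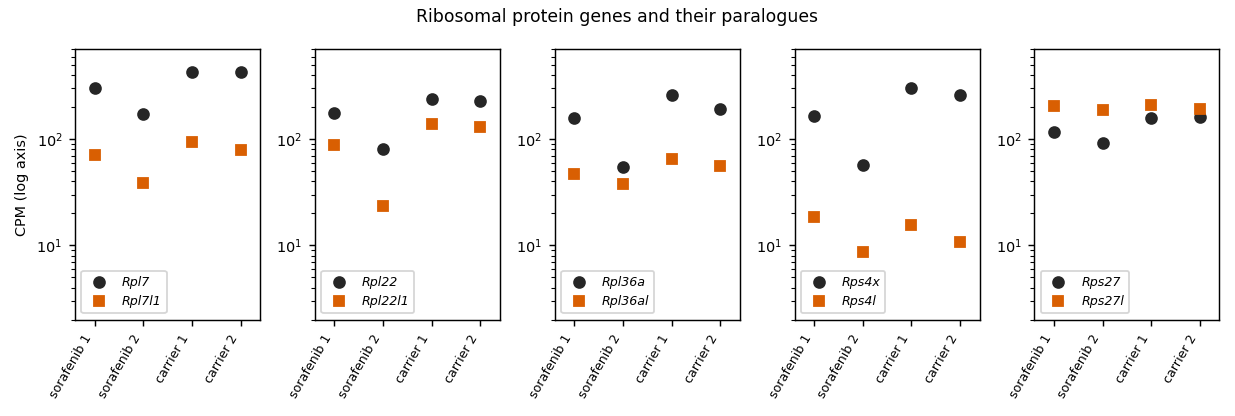
CPM of 5 paralogue pairs in each library on a log axis (y), with circles for the first gene and squares for its paralogue, sorafenib libraries left and carrier libraries right in each panel. Rpl22l1 and Rps4x are lowest in sorafenib library 2, at 23.4 and 57.0 CPM, while Rps27l lies between 187 and 209 CPM in all 4 libraries.

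The remaining genes with small differences were Rpl27, with 74.0 and 57.0 CPM with sorafenib against 95.6 and 77.9 CPM with carrier (-0.40 ± 0.24), and Rpl35a, with 95.6 and 63.9 CPM against 113 and 96.6 CPM (-0.42 ± 0.27). Rpl28 and Rpl7a also overlapped between the groups. Rpl28 had 207 and 112 CPM, against 257 and 207 CPM, and Rpl7a had 339 and 180 CPM, against 391 and 332 CPM. In both, only sorafenib library 1 reached the lower carrier value. Rps3 and Rps12 were among the 3 small subunit genes of highest mean CPM, and Rps12 had 544 and 175 CPM with sorafenib, against 696 and 730 CPM with carrier (-1.21 ± 0.51).

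Levels per kilobase differed widely between genes. Per kilobase of coding sequence, the 79 protein-coding kept genes had a median of 325 CPM in sorafenib and 561 CPM in carrier libraries. The quartiles lay at 209 and 475 CPM per kb with sorafenib, and at 385 and 864 CPM per kb with carrier. By carrier level, the highest after Rplp1 were Rpl41 with 1130 and 2382 CPM per kb in sorafenib and carrier, Rps29 with 1146 and 1963, Rpl13a with 1018 and 1833 and Rps12 with 908 and 1800. By carrier level, the lowest after Rpl23a were Rpl7l1 with 74.4 and 118 CPM per kb in sorafenib and carrier and Rpl15 with 103 and 212.

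Genes with more shared sequence tended to have lower levels per kilobase. A median of 48.3% of a gene's 75-base stretches occurred in transcripts of other genes, over a range of 0.0 to 98.5%. Across the 79 genes the Spearman correlation of that share with carrier CPM per kb was -0.50, and with the log2 fold change 0.13. Carrier CPM and coding length had correlations with the log2 fold change of -0.25 and -0.22. These are correlations across genes that share the same 4 libraries, given without a p. In the 43 genes with under 50% of stretches shared the median log2 fold change was -1.01, and 41 were lower in both sorafenib libraries. In the 36 with 50% or more it was -0.95, and 32 were lower. Of all tested genes, 41.3% were lower in both sorafenib libraries. Of 239 rows for ribosomal protein copies marked -ps, 38 were tested, and the summed CPM of all 239 was 158 and 77.0 with sorafenib, against 297 and 189 with carrier.

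Genes that work with the ribosomal proteins were mostly lower with sorafenib too, and limma called none of those below. Of all tested genes, 67.8% had a negative log2 fold change and 41.3% lay lower in both sorafenib libraries. Among 19 other TOP mRNAs, which code for elongation and initiation factors and the like, all 19 listed genes had a negative log2 fold change, 18 lay lower in both sorafenib libraries, and the median was -0.88. Hnrnpa1, an RNA-binding protein, had 24.1 and 13.0 CPM with sorafenib, against 58.7 and 48.1 CPM with carrier. Eif3l, a subunit of an initiation factor, had 69.6 and 45.0 CPM, against 112 and 105 CPM. Of 34 tested genes for rRNA synthesis and processing, 32 lay lower, with a median of -0.85. Dkc1, the pseudouridine synthase of small nucleolar particles, had 15.2 and 5.34 CPM, against 34.6 and 32.8 CPM, and Npm1, a nucleolar chaperone that both lists hold, had 251 and 124 CPM, against 388 and 384 CPM. Of 11 tested chaperones and importers of ribosomal proteins, 7 lay lower, with a median of -0.61. The importin Ipo5 had 56.1 and 42.5 CPM with sorafenib, against 98.3 and 98.5 CPM with carrier, and Kpnb1 had 102 and 58.3 CPM, against 145 and 145 CPM.

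Proteins of the mitochondrial ribosome, a separate machine, had values nearer to those of all genes. Of 76 tested genes, 32 (42.1%) lay lower in both sorafenib libraries, against 41.3% of all tested genes. The median log2 fold change of the 76 was -0.23, near the -0.26 of all genes. Over all 82 such genes in the tables the summed CPM was 2755 and 2480 with sorafenib, against 3054 and 2792 with carrier. No test of the difference between the gene lists was made. Over all 37 genes of mitochondrial DNA in the tables, the summed CPM was 53430 and 76520 with sorafenib, against 35910 and 36660 with carrier. Of these genes 15 were tested, and 12 were higher in both sorafenib libraries, against 17.5% of all tested genes.

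**Figure D5:**
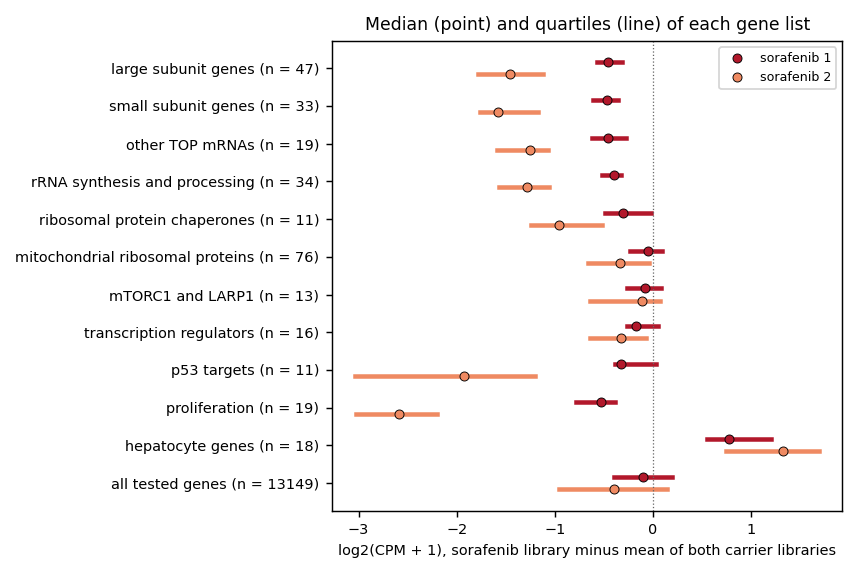
Median (point) and quartiles (line) of the difference between each sorafenib library and the carrier mean on the log2(CPM + 1) scale (x axis), for ribosomal protein genes and other gene lists (rows, with the number of genes tested). Both subunits lie left of all tested genes in both libraries, with medians of -0.46 and -0.47 in library 1 and -1.46 and -1.58 in library 2.

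The regulators measured gave a mixed list. Myc, which was part of the transposon, had 28.8 and 15.8 CPM in sorafenib libraries, against 70.6 and 78.1 CPM in carrier libraries (-1.75, limma adjusted p = 0.240). Nras had 47.0 and 22.1 CPM, against 88.3 and 83.4 CPM (-1.38, limma adjusted p = 0.240), and reads of the transposon and of the mouse's own gene cannot be told apart in these tables. Of 16 genes for Myc, its partners and other factors, 5 lay lower, Myc among them, and 1 higher, against 41.3% and 17.5% of all genes, with a median of -0.22 beside the -0.26 of all genes. Mnt, a Myc antagonist, had 13.3 and 7.24 CPM with sorafenib, against 18.2 and 22.6 CPM with carrier, and Mycl was the 1 that lay higher, with 8.85 and 27.6 CPM, against 6.07 and 6.98 CPM. Of 13 genes of mTORC1, its targets and LARP1, 4 lay lower and 1 higher, with a median of -0.13. Eif4ebp2, a translation inhibitor that mTORC1 switches off, had 14.0 and 11.4 CPM, against 24.1 and 26.4 CPM. Deptor, an mTOR inhibitor, had 116 and 170 CPM, against 82.4 and 85.8 CPM. RNA levels do not show the activity of these kinases.

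Of 11 genes of the p53 pathway, all 11 listed genes had a negative log2 fold change and 7 lay lower in both sorafenib libraries, against 67.8% and 41.3% of all genes. Cdkn1a, a cell-cycle inhibitor, had 54.6 and 2.67 CPM with sorafenib, against 121 and 95.7 CPM with carrier. Btg2, an antiproliferative gene, had 75.2 and 4.57 CPM, against 118 and 272 CPM. All 11 listed genes were lower in sorafenib library 2 than in sorafenib library 1, as were 8959 of the 13149 tested genes.

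Several lists of marker genes for cell types and for tumor cells moved with the ribosomal protein genes, beside the 41.3% of all genes that lay lower in both sorafenib libraries and the 17.5% that lay higher. Of 12 tested oncofetal genes, 9 lay lower in both sorafenib libraries and 1 higher, and the list summed to 15270 and 126 CPM with sorafenib, against 38280 and 33200 CPM with carrier. Of 14 listed, Igf2bp1 and Lin28b were at 0 in every library. Of 19 proliferation genes, 17 lay lower, with sums of 232 and 56.8 CPM, against 391 and 318 CPM. For macrophages it was 11 of 12, with 205 and 88.1 CPM against 398 and 418 CPM, and for endothelium 9 of 11, with 213 and 92.6 CPM against 261 and 306 CPM. For stellate cells and matrix it was 8 of 11, with 301 and 233 CPM against 426 and 660 CPM, and for erythroid cells 5 of 7, with 209 and 48.2 CPM against 313 and 249 CPM. Of 9 tested lymphocyte genes 2 lay lower and 2 higher (30.7 and 26.1 CPM against 32.2 and 24.0 CPM over all 14 listed), and of 7 tested biliary genes 0 did either (538 and 124.8 CPM against 487 and 693 CPM over all 8 listed). Of 18 hepatocyte genes, the labelled source of these tumors, 14 lay higher and 3 lower, with a median log2 fold change of 1.00, and they summed to 138000 and 141100 CPM, against 138700 and 152300 CPM, of which Alb alone made 79610 and 71700 CPM, against 91590 and 107500 CPM. The part of these cell types in the ribosomal protein result was not tested. In bulk tissue, fewer cells of a type and less RNA per cell cannot be told apart.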

How the data were processed

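RNA from 2 sorafenib and 2 carrier libraries had been sequenced as single reads of 75 cycles, per the labels' protocols. The deposited values are CPM, which the authors made by scaling each gene's reads to the same total in every library. STAR 2.6.1c, Subread 1.6.3, edgeR 3.22.5 and GRCm38 are named per the submitters' processing notes, with strand and multi-mapping settings not given in the sources used here. 100% of values were whole multiples of 1 read, from which the total reads were computed. Genes at 1 CPM or more in 2 libraries were tested with limma 3.58.1 (R 4.3.3) on log2(CPM + 1), with a mean-variance trend, no covariate, two-sided, with Benjamini-Hochberg adjustment over 13149 genes at 0.05. A fold change on this scale understates that of low genes. The quasi-likelihood test of edgeR was an alternative because the tables hold no counts. Alternatives were edgeR 4.0.16 and DESeq2 1.42.0 on recovered reads, other scalings, filters and pseudocounts, a replicate block, leaving out each library, and, chosen after seeing the data, edgeR's likelihood ratio test and genes with little shared sequence. The fit was also run on simulated reads with known changes, and its outcome there is not given here.

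The genes and gene lists were chosen with earlier results of these data known. Genes were named by rule: per subunit the 5 of smallest p in each direction, the 3 of highest mean CPM, the 3 of smallest absolute fold change and the 2 on either side of the 1 CPM limit; members of the role lists; the 2 of smallest p per direction in each other list; and Myc and Nras. Rpl28, Rpl7a, Rpl41 and Rps29 fall outside this rule and were named after their values were seen. Gene structures and transcripts were GENCODE M21, where 37693 of 39179 identifiers were found. All 88 genes matched by symbol were found there, pseudogenes included. The coding length was that of the principal transcript. Promoter sequences were RefSeq's. Some genes of these lists enter the counts and medians but are not reported here by name.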

Additional observations from a re-analysis of the deposited data

How the results depend on the processing

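The median log2 fold change stayed negative for both subunits under every alternative run, from -0.46 to -1.46 for the large and from -0.47 to -1.58 for the small subunit when 1 library was left out. Leaving out 1 library put the count of called ribosomal protein genes between 0 and 76 (3 without sorafenib replicate 2), and that of all genes between 0 and 5149 (398 without sorafenib replicate 2). All genes called were 498 with DESeq2 and 694 with edgeR's likelihood ratio test. Among the 43 genes with under 50% shared sequence, 41 lay lower in both sorafenib libraries, against 41.3% of all tested genes. Rps27l and Rps4l turned positive with DESeq2 (0.24 and 0.25), the likelihood ratio test (0.22 and 0.24), the quasi-likelihood test (0.22 and 0.24), RLE (0.23 and 0.21), TMM (0.22 and 0.19) and upper-quartile factors (0.16 and 0.14). With 1 library left out, values ranged from -0.10 to 0.0326 for Rps27l, -0.55 to 0.47 for Rps4l and -0.72 to 0.19 for Rpl23a. The cause was not tested.

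With the replicate number as a block, limma called 0 of the 80, with a smallest adjusted p of 0.111. The deviations of libraries with the same number had a correlation of 0.15 across 13149 genes, and with 2 pairs the numbers do not show that the libraries were paired.

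With 2 libraries a group and 4067427 to 5932939 reads, genes near 1 CPM rest on few reads.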
